A study of Mus musculus with 24 samples.

Results

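The glycolysis and hypoxia response genes are 34 mouse genes chosen by symbol: glucose transporters, the enzymes of glycolysis with their isoforms, the subunits and oxygen sensors of the hypoxia-inducible factor (HIF), and known targets of HIF. All 34 were found among the 21948 protein-coding genes kept, and all 34 passed the filter on low values, which 11767 genes passed. Their RNA was measured in sorted skeletal stem and progenitor populations of male wild-type mice at postnatal day 10, in 6 groups of 4 libraries. From vertebrae came GFP+ EMB+, GFP+ EMB-, GFP- EMB+ and GFP- EMB- cells. From femur and tibia came EMB+ and EMB- long bone cells, GFP- by their titles. All cells had been sorted as negative for CD45, Ter119, CD31, Thy1, 6C3 and CD105 and positive for CD200. They were then divided by embigin (EMB, a surface glycoprotein) and, in vertebrae, by GFP, which here marks a lineage with past activity of a Zic1-linked Cre. No number of animals per library is given, the titles call the replicates biological, and a p-value here reflects variation among libraries, which may be technical in part.

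Glycolysis splits glucose into pyruvate, and cells short of oxygen turn the pyruvate into lactate. Where oxygen is scarce the alpha subunits of HIF, encoded by Hif1a and Epas1, escape hydroxylation by the prolyl hydroxylases Egln1 and Egln3, enter the nucleus and raise transcription of glycolytic genes and of genes such as Car9 and Bnip3. Cartilage of the growth plate has no blood vessels, and Hif1a is known there for the survival of chondrocytes.

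Values are FPKM, fragments scaled to transcript length and to the mapped fragments of the library. This scaling does not remove a shift of many genes together between groups, so comparisons between libraries depend on it. In vertebral GFP+ cells 42.1% of all genes tested were higher in EMB+ than in EMB- libraries, and 12.9% after median-ratio scaling. Summed FPKM ran between 382613 and 569545 per library, and the read depth is unknown. Emb RNA was at 30.1 to 56.5 FPKM in the 12 EMB+ libraries, against 0.238 to 1.32 FPKM in the 12 EMB- libraries. The titles of the 4 vertebral GFP- EMB+ libraries contradict their cell type labels, which were followed here. These libraries held 44.4 to 55.3 FPKM of Emb and at most 0.108 FPKM of Zic1, against 0.349 to 2.39 FPKM of Zic1 in the vertebral GFP+ libraries, and no value of that group is possible without them. Long bone EMB- replicate 4 stood apart, with correlations of 0.925 to 0.944 to the other libraries of its group, against 0.970 to 0.989 for all other pairs within groups. Genes of 10 chondrocyte markers summed to 53001 to 61384 FPKM in vertebral and 29743 to 43495 FPKM in long bone libraries. Although Ter119+ cells had been gated out, 10 erythroid genes summed to 7303 to 12398 FPKM in vertebral GFP- EMB- and 20247 to 42638 FPKM in long bone EMB- libraries, against 122 to 979 FPKM in the other 16. The 6 endothelial genes summed to at most 8.78 FPKM in any library. These are bulk samples, in which fewer cells of a type and less RNA per cell cannot be told apart.

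The promoters of the 4 genes below are shown because these genes had the smallest adjusted p among the members that hold the letters ACGTG, the core of the hypoxia response element. They run from 250 bases before to 50 bases after the transcription start in RefSeq on GRCm38.p6, and capitals mark ACGTG, or CACGT where it lies on the other strand. Car9 lies at chr4:43506776-43507075 on the + strand, Bnip3 at chr7:138909457-138909756 on the - strand, Slc2a1 at chr4:119108495-119108794 on the + strand and Higd1a at chr9:121857747-121858046 on the - strand.
Car9: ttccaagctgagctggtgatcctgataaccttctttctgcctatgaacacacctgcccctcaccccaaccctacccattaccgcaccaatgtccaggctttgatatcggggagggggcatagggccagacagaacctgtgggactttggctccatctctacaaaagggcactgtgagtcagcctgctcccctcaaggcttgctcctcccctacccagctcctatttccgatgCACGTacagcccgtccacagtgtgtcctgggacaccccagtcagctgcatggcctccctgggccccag
Bnip3: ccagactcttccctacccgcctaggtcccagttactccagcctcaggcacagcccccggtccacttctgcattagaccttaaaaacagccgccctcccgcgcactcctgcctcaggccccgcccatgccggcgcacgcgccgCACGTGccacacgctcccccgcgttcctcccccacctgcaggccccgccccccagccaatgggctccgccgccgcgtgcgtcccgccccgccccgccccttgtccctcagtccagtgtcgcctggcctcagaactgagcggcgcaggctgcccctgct
Slc2a1: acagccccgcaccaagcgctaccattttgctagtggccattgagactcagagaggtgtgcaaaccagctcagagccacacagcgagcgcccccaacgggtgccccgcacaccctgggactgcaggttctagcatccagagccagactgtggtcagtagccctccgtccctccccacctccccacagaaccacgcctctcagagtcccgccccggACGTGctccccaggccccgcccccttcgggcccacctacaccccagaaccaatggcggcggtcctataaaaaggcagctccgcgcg
Higd1a: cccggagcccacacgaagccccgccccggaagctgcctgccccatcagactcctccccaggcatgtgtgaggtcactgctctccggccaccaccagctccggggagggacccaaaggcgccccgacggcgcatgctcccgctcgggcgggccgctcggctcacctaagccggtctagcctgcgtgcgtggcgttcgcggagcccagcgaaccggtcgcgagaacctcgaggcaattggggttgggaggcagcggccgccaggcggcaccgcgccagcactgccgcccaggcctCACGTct
The genes run, in the deposited annotation of GRCm38, over chr4:43506966-43513729 (Car9, + strand), chr7:138890836-138909519 (Bnip3, - strand) and chr13:6579768-6648777 (Pfkp, - strand), whose promoter in the table does not hold these letters. In Car9 the letters begin at position -18 and in Slc2a1 at -36, counted from the start site. Those of Higd1a begin at +44, and in Bnip3 2 overlapping matches, at -108 and -107, form CACGTG, which is also the E-box of basic helix-loop-helix factors. Over both strands, 20 of 31 members with a promoter in the table held ACGTG in at least 1 promoter (64.5%), against 5886 of 27025 genes (21.8%). Counted by promoter, it was in 23 of 44 promoters of members (52.3%), against 6447 of 32851 promoters (19.6%). A match is a run of letters and does not show that a factor binds. The members were chosen in part as known targets of HIF, so a higher share among them is not independent of that choice. The genes they are set against are all those with a promoter in the table, not only the genes tested. Ndrg1, Epas1 and Slc2a3 were not matched in the table.

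All 34 genes were above 0 FPKM in all 24 libraries, and 27 were at 1 FPKM or more in all of them. The most abundant was Ldha, which encodes the A subunit of lactate dehydrogenase, with a mean of 549 FPKM over the 24 libraries. Eno1 (enolase) averaged 508 FPKM, Pkm (pyruvate kinase) 427 FPKM, Gapdh 389 FPKM, Aldoa (aldolase A) 289.8 FPKM and Tpi1 (triosephosphate isomerase) 268 FPKM. Bnip3, which encodes a mitochondrial receptor for mitophagy, averaged 135 FPKM and was the 7th gene above 100 FPKM. A further 16 genes averaged 10 to 100 FPKM and 11 averaged less. Of the HIF alpha subunits, Hif1a averaged 75.8 FPKM and Epas1, which encodes HIF-2 alpha, 1.33 FPKM, the lowest mean of the 34.

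For 16 of the 34 genes the mean was highest in vertebral GFP- EMB- cells, for 7 in long bone EMB- cells, for 5 in long bone EMB+ cells, for 4 in vertebral GFP- EMB+ cells and for 2 in vertebral GFP+ EMB+ cells. Together the 34 genes held 0.665% ± 0.0526 of the summed FPKM in vertebral GFP+ EMB+ cells, against 0.787% ± 0.0801 in vertebral GFP+ EMB- cells (SD, n = 4 each, as below). They held 0.747% ± 0.0418 in vertebral GFP- EMB+ cells, against 1.01% ± 0.0615 in vertebral GFP- EMB- cells, where the lowest library lay above the highest of every other group. In long bone the order was the other way, with 0.726% ± 0.0799 in EMB+ cells, against 0.594% ± 0.0852 in EMB- cells. The 7 HIF targets outside glycolysis made the widest gap: 0.0399% ± 0.00353 in vertebral GFP+ EMB+ cells, against 0.0933% ± 0.00976 in GFP+ EMB- cells. In vertebral GFP- cells these were 0.0429% ± 0.00144 in EMB+ cells, against 0.124% ± 0.0120 in EMB- cells. In long bone, their share was 0.0486% ± 0.00866 in EMB+ cells, against 0.0513% ± 0.00949 in EMB- cells.

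**Figure D1:**
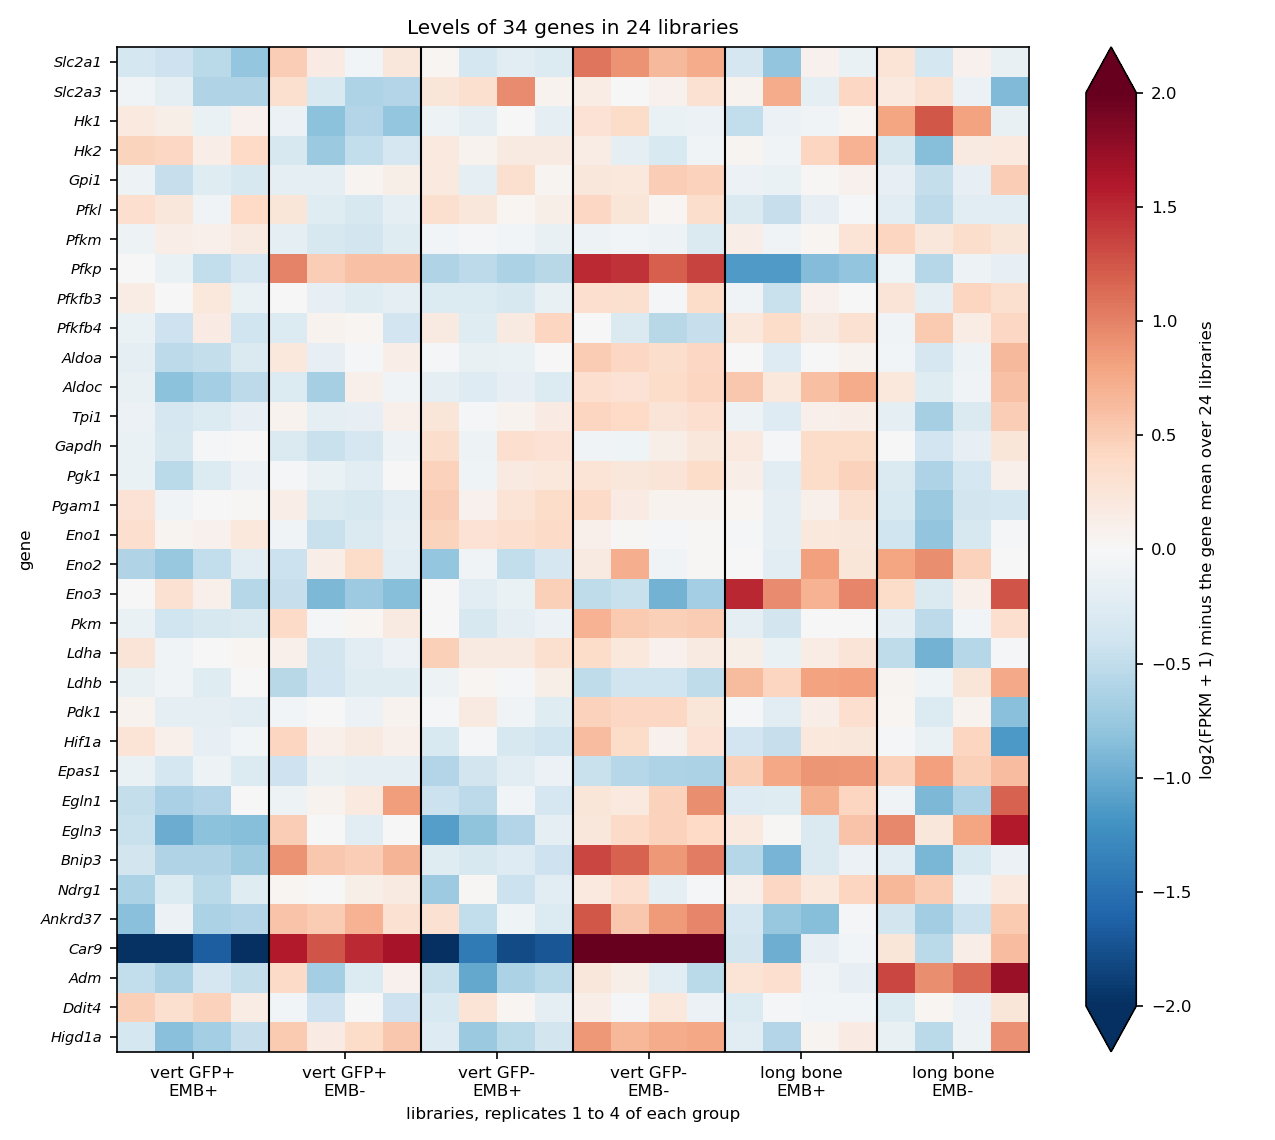
Heat map of the 34 genes (down the page, by role) in the 24 libraries (across, 4 per group), coloured by log2(FPKM + 1) minus the mean of the gene over the 24 libraries, with colours capped at 2 in either direction. Car9, Bnip3, Higd1a and Pfkp are above their means in the vertebral EMB- libraries and below them in the vertebral EMB+ libraries, while Epas1 and Eno3 are above theirs in long bone EMB+ libraries.

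In vertebral GFP+ cells, EMB+ cells held less RNA of 10 members than EMB- cells, among them 5 of the 7 HIF targets outside glycolysis, and more RNA of 7. Lower were Slc2a1, Pfkp, Aldoa, Pkm, Egln3, Bnip3, Ndrg1, Ankrd37, Car9 and Higd1a, and higher were Hk1, Hk2, Pfkl, Pfkm, Eno1, Eno3 and Ddit4. Car9 was 23.9-fold lower, Bnip3 2.35-fold lower and Pfkp 1.91-fold lower by the ratio of mean FPKM. Of all 11767 genes tested, 7.85% were lower and 42.1% higher in EMB+ cells (limma on log2(FPKM + 1), adjusted p under 0.05). The median change was -0.17 (log2) for the 34 genes and 0.32 for all genes tested. Median-ratio scaling takes out that shift. Under it 18 members were lower, including all 10, and 1 was higher, Hk2, while 14.7% of all genes were lower and 12.9% higher. Without vertebral GFP+ EMB- replicate 2, 4 members were higher instead of 7.

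Car9, the surface carbonic anhydrase IX that removes acid from hypoxic cells, had 0.688, 0.694, 1.13 and 0.487 FPKM in EMB+ libraries, against 19.0, 15.0, 17.8 and 20.003 FPKM in EMB- libraries. Its groups did not overlap, and the log2 change was -3.44 (SE 0.21, limma adjusted p = 1.6e-12). Bnip3 had 93.3, 79.3, 79.1 and 73.1 FPKM in EMB+ libraries, against 225, 174.7, 169.2 and 193 FPKM in EMB- libraries. The lowest EMB- library was above the highest EMB+ library, with a log2 change of -1.22 (SE 0.16, limma adjusted p = 1.8e-06). Pfkp, the platelet-type subunit of phosphofructokinase, had 36.8, 33.5, 25.9 and 29.0 FPKM in EMB+ libraries, against 74.5, 52.6, 55.9 and 55.9 FPKM in EMB- libraries. These groups were also apart, with a log2 change of -0.91 (SE 0.13, limma adjusted p = 4e-06). Hk2, the inducible hexokinase, went the other way, with 6.97, 6.80, 5.40 and 6.68 FPKM in EMB+ libraries, against 3.696, 2.48, 3.14 and 3.62 FPKM in EMB- libraries. It was 2.00-fold higher without overlap, by 0.82 (log2, SE 0.19, limma adjusted p = 0.001) and by 0.51 after median-ratio scaling (adjusted p = 0.032).

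Ddit4 and Pfkm were next after Hk2 by adjusted p among the rises, and both lost their calls under that scaling. Ddit4, which encodes an inhibitor of mTORC1 induced by stress, had 14.6, 13.0, 14.5 and 11.5 FPKM in EMB+ libraries, against 9.76, 7.39, 10.2 and 7.38 FPKM in EMB- libraries, a change of 0.58 (log2, SE 0.14, limma adjusted p = 0.0015). All 4 EMB+ libraries were above all 4 EMB- libraries, but median-ratio scaling gave 0.22 (adjusted p = 0.24). Pfkm, the muscle-type phosphofructokinase subunit, had 11.8, 14.1, 13.8 and 14.6 FPKM in EMB+ libraries, against 11.2, 10.1, 9.66 and 10.6 FPKM in EMB- libraries. Its groups did not overlap, with a change of 0.36 (log2, SE 0.10, limma adjusted p = 0.0046), and median-ratio scaling gave -0.00 (adjusted p = 0.99). The other 4 genes called higher were Hk1 (0.64), Eno1 (0.42), Eno3 (0.70) and Pfkl (0.35), and median-ratio scaling ended the call of each. Eno1 also lost it without EMB- replicate 2 (limma adjusted p = 0.054) or EMB+ replicate 1 (adjusted p = 0.052). Eno3 lost it without EMB- replicate 2 or 4 or EMB+ replicate 2 or 3 (limma adjusted p between 0.053 and 0.077), and Pfkl without EMB- replicate 2, 3 or 4 or EMB+ replicate 1, 2 or 4 (limma adjusted p between 0.057 and 0.10).

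Of the remaining genes that fell in vertebral GFP+ EMB+ cells, Slc2a1, the main glucose transporter of many cell types, averaged 23.7 ± 3.06 FPKM in EMB+ cells and 39.8 ± 6.35 FPKM in EMB- cells (-0.72, limma adjusted p = 0.0009). Higd1a, a mitochondrial inner membrane protein induced by hypoxia, averaged 62.2 ± 9.40 FPKM in EMB+ cells and 123 ± 14.7 FPKM in EMB- cells (-0.98, limma adjusted p = 0.00047). Ankrd37, an ankyrin repeat protein, averaged 2.26 ± 0.743 FPKM in EMB+ cells and 5.74 ± 0.749 FPKM in EMB- cells (-1.07, limma adjusted p = 0.00059). Egln3, an oxygen sensor whose gene is itself a HIF target, averaged 0.519 ± 0.255 FPKM in EMB+ cells and 1.75 ± 0.612 FPKM in EMB- cells (-0.85, limma adjusted p = 0.0043). In all 4 of these genes the EMB+ and EMB- libraries did not overlap. Pkm was 0.43 lower (log2 change -0.43, limma adjusted p = 0.016), a call lost without EMB- replicate 1 (adjusted p = 0.061). Aldoa had -0.41 (limma adjusted p = 0.028), lost without EMB- replicate 1 or 4 or EMB+ replicate 2 or 3 (adjusted p between 0.069 and 0.081). Ndrg1, a stress-responsive gene, had -0.51 (limma adjusted p = 0.011), and its groups did not overlap. Hif1a itself averaged 76.1 ± 9.94 FPKM in EMB+ cells and 85.0 ± 9.54 FPKM in EMB- cells, which did not pass the test.

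Markers of other cell states moved with this sort. The 6 hypertrophic chondrocyte genes summed to 3693 to 4055 FPKM in vertebral GFP+ EMB+ libraries, against 975 to 1173 FPKM in EMB- libraries. The 8 tendon and fibroblast genes summed to 315 to 376 FPKM in EMB+ libraries, against 1535 to 1904 FPKM in EMB- libraries, and the 8 genes of dividing cells to 99.97 to 112 FPKM, against 15.5 to 22.4 FPKM. The 8 osteoblast genes summed to 3604 to 4561 FPKM in EMB+ libraries, against 7031 to 7569 FPKM in EMB- libraries, and 9 skeletal muscle genes to 86.4 to 108 FPKM, against 33.997 to 47.3 FPKM. By gene, 3 of the 8 osteoblast genes were called higher and 2 lower, unlike their sum. Of 5 skeletal muscle genes tested, 3 were called higher and 1 lower, where 42.1% of all genes were higher and 7.85% lower. In all 4 EMB+ libraries 6 of the 9 skeletal muscle genes were under 1 FPKM. The sums of the 10 chondrocyte genes overlapped, at 53001 to 56409 FPKM in EMB+ libraries, against 55211 to 58535 FPKM in EMB- libraries. By gene, 9 of the 10 were called higher and 1 lower, and 7 and 1 after median-ratio scaling. The part of these markers in the changes of the members was not tested. The sums of the 10 erythroid genes overlapped, at 199 to 551 FPKM in EMB+ libraries, against 266 to 979 FPKM in EMB- libraries.

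**Figure D2:**
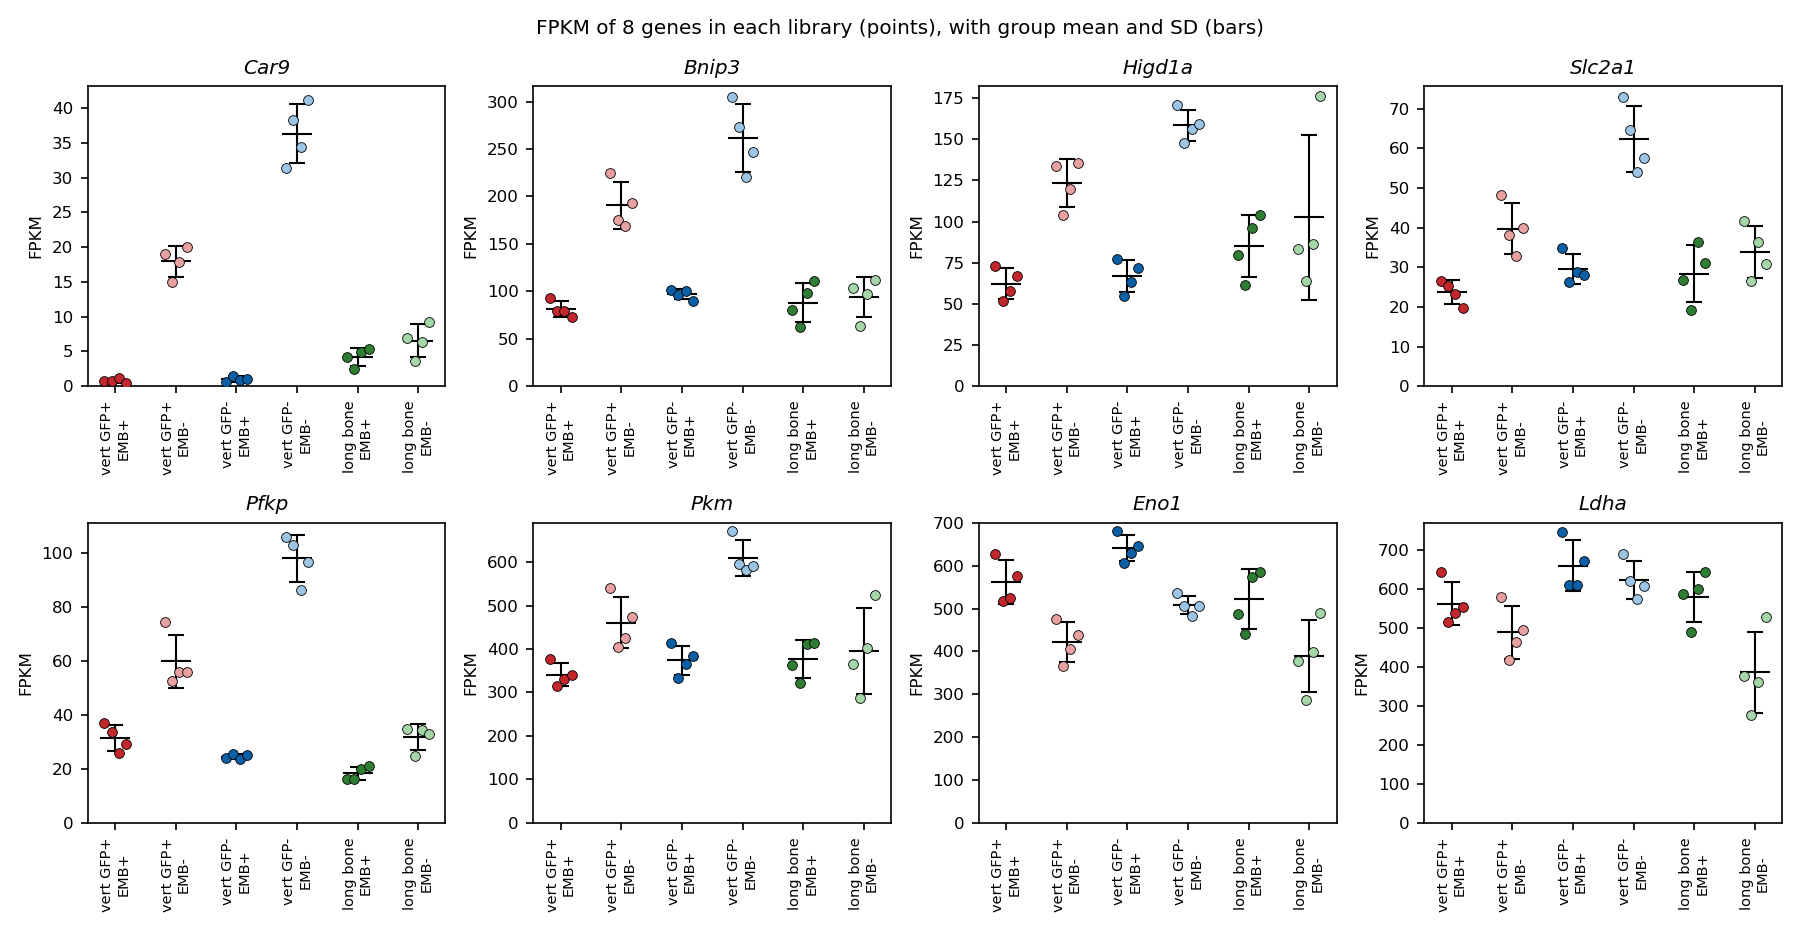
FPKM of Car9, Bnip3, Higd1a, Slc2a1, Pfkp, Pkm, Eno1 and Ldha in each library (points), with the mean and SD of the 4 libraries of each group, on linear axes that start at 0. Car9 is at 15.0 to 41.1 FPKM in vertebral EMB- libraries, and Bnip3, Higd1a and Pfkp are also higher there than in vertebral EMB+ libraries, while Eno1 and Ldha do not show this pattern.

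In vertebral GFP- cells, EMB+ cells held less RNA of 17 members and more of 4. All 10 genes that were lower in vertebral GFP+ EMB+ cells were lower here too, joined by Pfkfb3, Aldoc, Eno2, Pdk1, Hif1a, Egln1 and Adm. How many of all genes were lower in both is not given here, so this overlap cannot be read as particular to the members. By role, 6 of 7 HIF targets outside glycolysis, 3 of 4 HIF subunits and oxygen sensors and 4 of 10 genes of upper glycolysis were lower. Of all genes tested 10.6% were lower and 41.7% higher. The median change was -0.34 (log2) for the 34 genes, against 0.30 for all genes tested, and after median-ratio scaling 25 members were lower, including all 17, and none was higher, against 19.7% lower and 15.3% higher of all genes. The 4 higher genes, Pfkfb4, Eno1, Eno3 and Ldhb, all lost their call under that scaling.

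Car9 had 0.577, 1.503, 0.930 and 1.04 FPKM in EMB+ libraries, against 31.4, 38.3, 34.4 and 41.1 FPKM in EMB- libraries. It was 35.8-fold lower with no overlap, by -4.22 (log2, SE 0.21, limma adjusted p = 2e-14). Pfkp had 23.9, 25.5, 23.5 and 25.0 FPKM in EMB+ libraries, against 106, 103, 86.2 and 96.4 FPKM in EMB- libraries. All EMB+ libraries lay far below all EMB- libraries, 4.00-fold by their means and by -1.95 on the log2 scale (SE 0.13, limma adjusted p = 7.6e-12). Bnip3 had 102, 95.8, 100.1 and 89.9 FPKM in EMB+ libraries, against 304, 273, 221 and 247 FPKM in EMB- libraries. It was 2.70-fold lower, again without overlap, by -1.41 (log2, SE 0.16, limma adjusted p = 1.4e-07).

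Higd1a averaged 66.9 ± 9.88 FPKM in EMB+ cells and 158 ± 9.48 FPKM in EMB- cells (-1.24, limma adjusted p = 2.5e-05). Slc2a1 averaged 29.6 ± 3.72 FPKM in EMB+ cells and 62.4 ± 8.35 FPKM in EMB- cells (-1.05, limma adjusted p = 9.9e-06), and Pkm 374 ± 33.6 FPKM in EMB+ cells and 611 ± 41.9 FPKM in EMB- cells (-0.71, limma adjusted p = 0.00022). None of these 3 genes overlapped between EMB+ and EMB- libraries. Hif1a averaged 61.3 ± 7.27 FPKM in EMB+ cells and 94.3 ± 14.5 FPKM in EMB- cells (-0.61, limma adjusted p = 0.024), a call lost without EMB- replicate 1 (adjusted p = 0.076) or EMB+ replicate 4 (adjusted p = 0.059). Pdk1, the kinase that shuts pyruvate dehydrogenase, averaged 29.1 ± 3.60 FPKM in EMB+ cells and 39.2 ± 2.57 FPKM in EMB- cells (-0.42, limma adjusted p = 0.022), lost without EMB- replicate 1 (adjusted p = 0.051) or EMB+ replicate 4 (adjusted p = 0.074).

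Of the other genes called lower, Egln3 had -1.04 and Ankrd37 -1.04 (limma adjusted p = 0.00062 and 0.00066). The calls of Eno2 (-0.64), Egln1 (-0.79), Ndrg1 (-0.43) and Adm (-0.56) were lost without single libraries (limma adjusted p between 0.055 and 0.14). That of Eno2 was lost without EMB- replicate 2 or EMB+ replicate 1 or 3, and that of Egln1 without EMB- replicate 3 or 4 or EMB+ replicate 1, 2 or 4. That of Ndrg1 was lost without EMB- replicate 1 or 2 or EMB+ replicate 1 or 3, and that of Adm without EMB- replicate 1 or 2 or EMB+ replicate 2. Car9, Pfkp and Bnip3 kept their calls without any 1 library.

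The genes called higher were Ldhb, Eno3, Pfkfb4 and Eno1. Ldhb, the B subunit of lactate dehydrogenase, had 26.9, 29.5, 28.3 and 31.5 FPKM in EMB+ libraries, against 19.998, 21.6, 21.6 and 20.01 FPKM in EMB- libraries. The groups were apart, with a change of 0.46 (log2, SE 0.13, limma adjusted p = 0.0056) that was 0.07 after median-ratio scaling (adjusted p = 0.7). Eno3, the muscle-type enolase, had 3.65, 2.97, 3.21 and 5.42 FPKM in EMB+ libraries, against 2.27, 2.40, 1.41 and 1.88 FPKM in EMB- libraries. There was no overlap, and the change of 0.67 (log2, SE 0.25, limma adjusted p = 0.026) was lost without EMB- replicate 3 (adjusted p = 0.082), EMB- replicate 4 (adjusted p = 0.051) or EMB+ replicate 4 (adjusted p = 0.099). Pfkfb4, a bifunctional enzyme that sets the level of the phosphofructokinase activator fructose 2,6-bisphosphate, had 1.75, 1.04, 1.75 and 2.25 FPKM in EMB+ libraries, against 1.43, 0.978, 0.645 and 0.752 FPKM in EMB- libraries. These groups overlapped (0.46, SE 0.17, limma adjusted p = 0.027), and the call was lost without EMB- replicate 3 or 4 or EMB+ replicate 1, 3 or 4 (adjusted p between 0.056 and 0.10). Eno1 had 682, 607, 631 and 647 FPKM in EMB+ libraries, against 536, 507, 484 and 507 FPKM in EMB- libraries. The groups did not overlap (0.34, limma adjusted p = 0.041), and the call was lost without EMB- replicate 2, 3 or 4 or EMB+ replicate 1, 3 or 4 (adjusted p between 0.064 and 0.096). Only 1 of the 4 genes was still called without EMB- replicate 3 or 4 or EMB+ replicate 4, and 2 were without EMB+ replicate 1 or 3.

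In these libraries erythroid genes summed to 122 to 520 FPKM in EMB+ cells, against 7303 to 12398 FPKM in EMB- cells. The 15 leukocyte genes summed to 455 to 3336 FPKM in EMB+ cells, against 140 to 565 FPKM in EMB- cells, with Cd3e listed at 0 in every library of both groups. Hypertrophic chondrocyte genes summed to 3791 to 4735 FPKM in EMB+ cells, against 398 to 592 FPKM in EMB- cells, and tendon and fibroblast genes to 314 to 516 FPKM, against 1243 to 1595 FPKM. Skeletal muscle genes summed to 63.1 to 79.8 FPKM in EMB+ cells, against 34.7 to 45.6 FPKM in EMB- cells. Of the 5 skeletal muscle genes tested, 1 was called higher and none lower, where 41.7% of all genes were higher. The 10 chondrocyte genes summed to 53616 to 55535 FPKM in EMB+ cells, against 56682.5 to 61384 FPKM in EMB- cells. Unlike their sum, 9 of the 10 were called higher and 1 lower, and 7 and 1 after median-ratio scaling. The part of these markers in the changes of the members was not tested. When every library was rescaled to a common sum of FPKM over all genes but the erythroid ones, all 4 calls of higher genes were lost. That rescaling also evens out differences in summed FPKM that do not come from erythroid genes. The loss can thus not be assigned to erythroid RNA, and the share of all genes called under it is not given here.

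**Figure D3:**
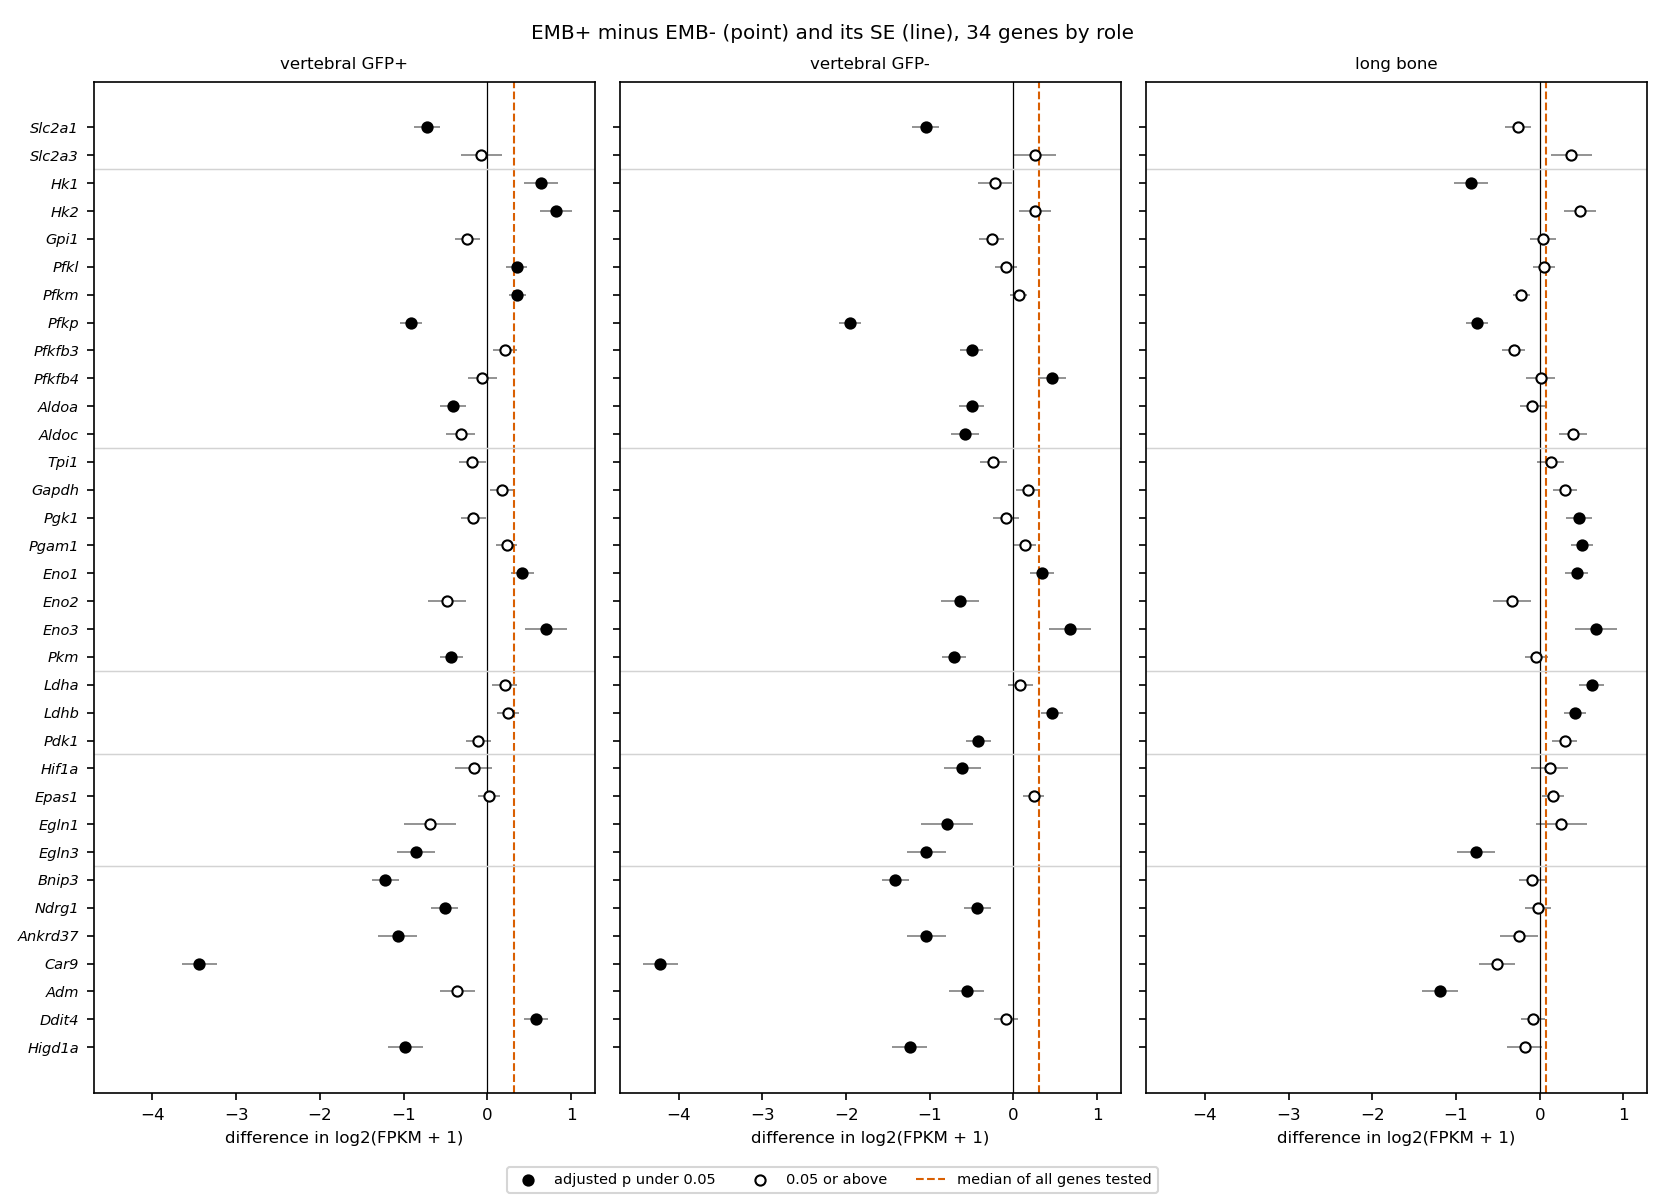
Log2 change (EMB+ minus EMB-, on log2(FPKM + 1)) of the 34 genes in vertebral GFP+, vertebral GFP- and long bone cells, with the SE as bars, filled points for an adjusted p under 0.05 and a dashed line at the median of all genes tested. Car9 is at -3.44, -4.22 and -0.51, Bnip3 at -1.22, -1.41 and -0.09, and Pfkp at -0.91, -1.95 and -0.75.

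In long bone, 6 of 34 members were higher in EMB+ cells and 4 lower, where 17.5% of all genes tested were higher and 16% lower. The share of members higher was thus near that of all genes, and the share lower was below it. Higher were the lower glycolytic genes Pgk1, Pgam1, Eno1 and Eno3 and the lactate dehydrogenase genes Ldha and Ldhb. Lower were Hk1, Pfkp, Egln3 and Adm. The median change was 0.03 (log2) for the members and 0.08 for all genes. The number called higher was set by a few libraries: 11 without long bone EMB- replicate 4, the library that stood apart, 2 without EMB- replicate 2 and 3 without EMB+ replicate 4. In a fit of the 8 long bone libraries alone, no member was higher (limma, 3 at an unadjusted p under 0.05) and 2 were lower, Pfkp and Adm. Median-ratio scaling gave 5 higher and 7 lower, against 12.2% higher and 18.3% lower of all genes.

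Ldha had 585, 488, 598 and 642 FPKM in EMB+ libraries, against 376, 277, 359.9 and 528 FPKM in EMB- libraries. EMB- replicate 4 lay within the EMB+ range, and the change was 0.62 (log2, SE 0.15, limma adjusted p = 0.0024), 0.78 without that library (adjusted p = 1.5e-05) and not called in long bone alone (adjusted p = 0.077). Pgam1, the phosphoglycerate mutase of most tissues, had 42.4, 36.1, 44.2 and 51.6 FPKM in EMB+ libraries, against 33.2, 24.1, 31.5 and 32.2 FPKM in EMB- libraries. The groups did not overlap, with a change of 0.51 (log2, SE 0.13, limma adjusted p = 0.0036), 0.54 without EMB- replicate 4 (adjusted p = 0.002) and adjusted p = 0.053 in long bone alone. Eno1 had 489, 441, 575 and 585 FPKM in EMB+ libraries, against 378, 286, 399.6 and 491 FPKM in EMB- libraries. They overlapped through EMB- replicate 4 (0.44, SE 0.14, limma adjusted p = 0.013; 0.56 and adjusted p = 0.00042 without it), and the call was lost without EMB- replicate 2 (adjusted p = 0.074) and in long bone alone (adjusted p = 0.17).

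Of the genes that fell, Pfkp had 16.3, 16.3, 19.8 and 21.0 FPKM in EMB+ libraries, against 34.8, 24.6, 34.4 and 32.9 FPKM in EMB- libraries. The groups were apart, with a 1.72-fold lower mean and a change of -0.75 (log2, SE 0.13, limma adjusted p = 6.6e-05; -0.73 without EMB- replicate 4). Adm, which encodes the vasodilator peptide adrenomedullin, had 2.23, 2.39, 1.55 and 1.39 FPKM in EMB+ libraries, against 5.72, 4.11, 4.88 and 7.81 FPKM in EMB- libraries. It was 2.98-fold lower without overlap, by -1.19 (log2, SE 0.21, limma adjusted p = 8.4e-05; -1.04 without EMB- replicate 4). Hk1, the hexokinase of most tissues and of red cells, had 19.5, 25.6, 26.5 and 28.7 FPKM in EMB+ libraries, against 48.5, 66.9, 49.2 and 25.0 FPKM in EMB- libraries. The overlap came from EMB- replicate 4, and the change of -0.82 (log2, SE 0.20, limma adjusted p = 0.0026) was -1.10 without that library (adjusted p = 4.3e-06) and not called in long bone alone (adjusted p = 0.057).

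The other 4 calls in long bone rested on overlapping groups. Pgk1 (0.47) was lost without EMB- replicate 2 or EMB+ replicate 3 or 4, Ldhb (0.42) without EMB- replicate 1 or 2 or EMB+ replicate 3 or 4, and Eno3 (0.67) without any 1 of 6 libraries, all but EMB- replicate 4 and EMB+ replicate 3 (limma adjusted p between 0.052 and 0.16). Egln3 averaged 1.88 FPKM in EMB+ cells and 4.05 FPKM in EMB- cells (-0.76, limma adjusted p = 0.013), lost without EMB- replicate 4 (adjusted p = 0.055) or EMB+ replicate 3 (adjusted p = 0.056).

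Car9, Bnip3 and Higd1a, which fell in vertebral EMB+ cells, did not pass the test here. Car9 had 4.16, 2.40, 4.93 and 5.40 FPKM in EMB+ libraries, against 6.91, 3.58, 6.30 and 9.28 FPKM in EMB- libraries, and the groups overlapped (-0.51, SE 0.21, limma adjusted p = 0.06; -0.57 and adjusted p = 0.025 after median-ratio scaling). Bnip3 had 80.5, 62.8, 98.1 and 111 FPKM in EMB+ libraries, against 104, 63.4, 97.3 and 112 FPKM in EMB- libraries. It spanned nearly the same range in both groups (-0.09, limma adjusted p = 0.7), as did Higd1a apart from EMB- replicate 4, at 176.1 FPKM (-0.18, limma adjusted p = 0.54). Erythroid genes summed to 244 to 530 FPKM in long bone EMB+ libraries, against 20247 to 42638 FPKM in EMB- libraries, and 9 skeletal muscle genes to 56.7 to 63.9 FPKM, against 372 to 846 FPKM, highest in EMB- replicate 4. Genes of dividing cells summed to 57.6 to 76.1 FPKM in EMB+ libraries, against 247 to 587 FPKM in EMB- libraries. Hypertrophic chondrocyte genes summed to 4464 to 8021 FPKM in EMB+ libraries, against 2441 to 4236 FPKM in EMB- libraries, and tendon and fibroblast genes to 805 to 1135 FPKM, against 1671 to 2612 FPKM. The sums of the 10 chondrocyte genes overlapped, and by gene 7 of the 10 were called higher and 0 lower. Their part in the changes of the members was not tested.

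The EMB difference was itself compared between the cells. Relative to vertebral GFP- cells, the EMB difference in vertebral GFP+ cells was less negative for Pfkp, by 1.04 (log2, SE 0.18, limma adjusted p = 0.00053). For Pfkfb3, which encodes another enzyme of fructose 2,6-bisphosphate, it was 0.71 above (SE 0.19, limma adjusted p = 0.029), and for Ddit4 0.67 above (SE 0.20, limma adjusted p = 0.048). Pfkfb3 had 11.4, 10.3, 11.98 and 9.15 FPKM in vertebral GFP+ EMB+ libraries, against 10.1, 8.97, 8.47 and 8.88 FPKM in GFP+ EMB- libraries. It had 8.22, 8.26, 7.997 and 9.09 FPKM in vertebral GFP- EMB+ libraries, against 13.1, 13.0, 9.83 and 13.5 FPKM in GFP- EMB- libraries. The GFP+ groups thus overlapped and the GFP- groups did not. These 3 members were the ones above and none was below (limma, 1 at an unadjusted p under 0.05), where 3.2% of all genes were above and 1.67% below. Blocked by replicate number, 5 members were above, adding Pfkl (0.43, SE 0.13, limma adjusted p = 0.043) and Car9 (0.78, SE 0.21, limma adjusted p = 0.024). The shares of all genes just given are from the fit without the block. Pfkp alone remained called without any 1 of 8 of the 16 vertebral libraries, namely GFP+ EMB- replicate 2 or 4, GFP+ EMB+ replicate 1 or 3, GFP- EMB- replicate 1 or 2, and GFP- EMB+ replicate 1 or 3.

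Relative to long bone cells, the EMB difference in vertebral GFP- cells was lower for 9 members and higher for none (limma, 2 at an unadjusted p under 0.05), where 5.07% of all genes were below and 24.7% above. Car9 was 3.72 below (log2 difference of -3.72, SE 0.29, limma adjusted p = 1.1e-09), Bnip3 had -1.32 (SE 0.23, limma adjusted p = 0.00015), Pfkp -1.20 (SE 0.18, limma adjusted p = 2.9e-05) and Higd1a -1.06 (SE 0.29, limma adjusted p = 0.0083). Slc2a1, Aldoc, Pgk1, Pkm and Pdk1 had values of -0.56 to -0.98, and Pgk1, at -0.56, lost its call without any 1 of 13 of the 16 libraries (limma adjusted p between 0.061 and 0.11). Without long bone EMB- replicate 4, 15 members were below and 1, Hk1, was above, with Car9 at -3.89, Bnip3 at -1.41 and Pfkp at -1.23. The share of all genes called without that library is not given here. After median-ratio scaling 18 were below, against 8.84% of all genes, and none above, against 10.5%.

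The phosphofructokinase subunits, which together catalyse the committed step of glycolysis, held different shares on the 2 sides of the EMB sort. Pfkp made up 31.4% ± 2.89 of the summed FPKM of Pfkl, Pfkm and Pfkp in vertebral GFP+ EMB+ cells, against 52.9% ± 1.15 in GFP+ EMB- cells. It made up 27.5% ± 1.46 in vertebral GFP- EMB+ cells, against 59.1% ± 1.06 in GFP- EMB- cells, and 25.7% ± 1.23 in long bone EMB+ cells, against 36.8% ± 1.70 in long bone EMB- cells. The 4 libraries of each EMB+ group lay below the 4 of the matching EMB- group. Pfkl, the liver-type subunit, held the larger share in all 3 EMB+ groups, at 54.7% ± 2.53, 58.9% ± 1.88 and 55.0% ± 0.734 in vertebral GFP+, vertebral GFP- and long bone cells. In the EMB- groups it held 37.8% ± 1.29, 33.8% ± 1.67 and 44.2% ± 0.830 in the same order. Pfkl was thus below Pfkp in vertebral EMB- cells but still above it in long bone EMB- cells. These shares are ratios within a library and do not depend on its scaling.

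In other families 1 gene held most of the RNA. Ldha made up 94.9% to 97.2% of Ldha and Ldhb in the vertebral libraries and 91.1% to 92.9% in those of long bone, where Ldhb was highest. Ldhb had 45.0, 39.3, 51.0 and 51.5 FPKM in long bone EMB+ libraries, against 29.8, 27.2, 34.4 and 49.7 FPKM in long bone EMB- libraries. Aldoa averaged 96.8% to 98.3% of Aldoa and Aldoc per group, and Eno1 97.9% to 99.3% of the 3 enolase genes. Hk2 averaged 9.75% to 19.8% of Hk1 and Hk2, lowest in long bone EMB- cells, where it ran from 3.24% to 18.5%, the highest in replicate 4.

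**Figure D4:**
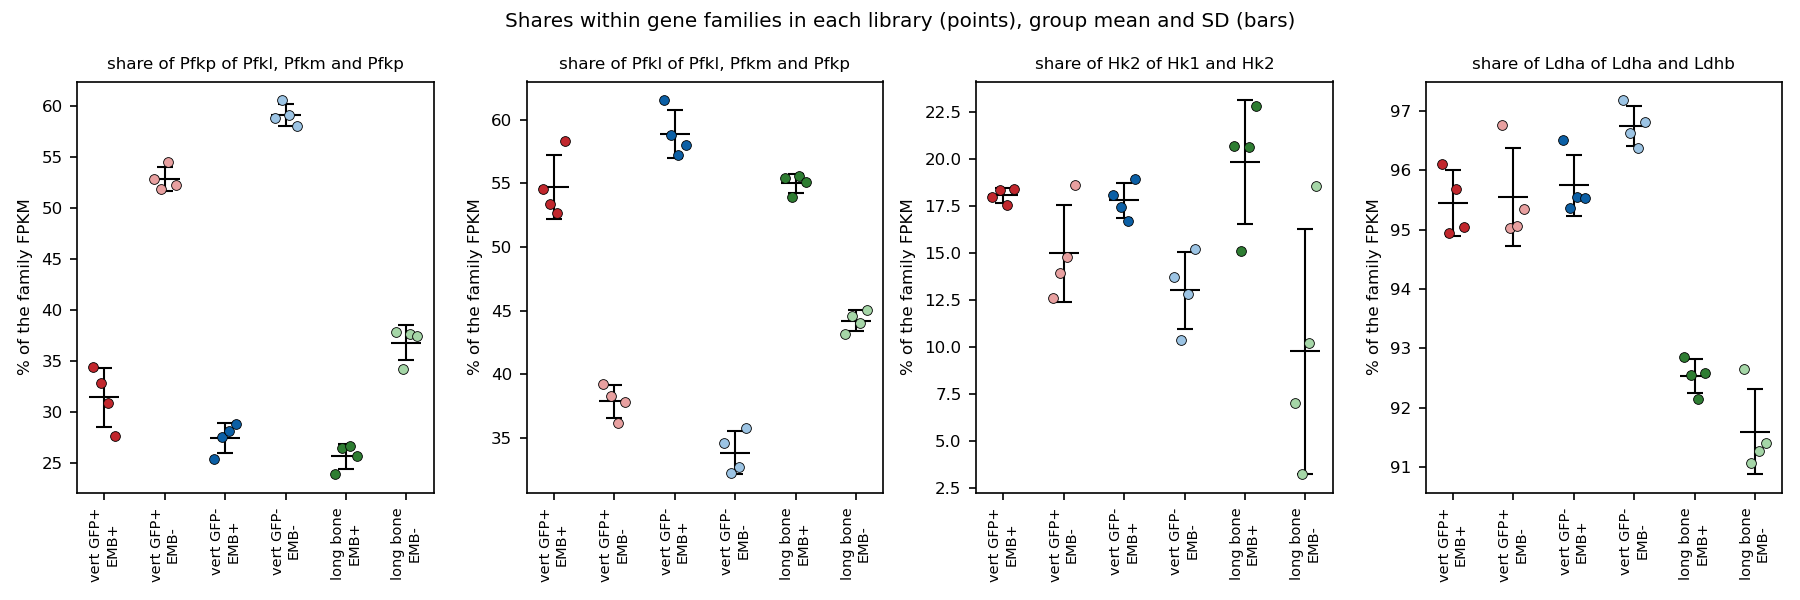
Shares of Pfkp and of Pfkl in the FPKM of the 3 phosphofructokinase genes, of Hk2 in Hk1 and Hk2, and of Ldha in Ldha and Ldhb, in percent for each library (points) with group mean and SD; the axes do not start at 0. Pfkp is at 51.8% to 60.6% in vertebral EMB- libraries and at 25.4% to 34.4% in vertebral EMB+ libraries.

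Between the GFP lineages, no member passed the test in EMB+ cells and 5 did in EMB- cells. In EMB+ cells 3 members were higher and 5 lower at an unadjusted p under 0.05 (limma), and 0.391% of all genes were higher and 1.71% lower in GFP+ cells. With the replicate number as a block, which pairs GFP+ and GFP- libraries, Pgk1, which encodes phosphoglycerate kinase, was lower in GFP+ EMB+ cells (-0.46, SE 0.09, limma adjusted p = 0.0061), and so was Gapdh (-0.34, limma adjusted p = 0.039). Leukocyte genes summed to 24.1 to 219 FPKM in GFP+ EMB+ libraries, against 455 to 3336 FPKM in GFP- EMB+ libraries, and skeletal muscle genes to 86.4 to 108 FPKM, against 63.1 to 79.8 FPKM. By gene, 8 of 10 leukocyte genes tested were called lower, and none of 5 skeletal muscle genes was called. The part of these genes was not tested. In EMB- cells, GFP+ cells held less RNA of 5 members, Slc2a1, Hk1, Pfkp, Aldoc and Car9, and more of none (limma, 1 at an unadjusted p under 0.05), where 6.22% of all genes were lower and 2.25% higher. The median change of the 34 genes was -0.37 (log2), against -0.02 for all genes tested.

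Car9 was 2.02-fold lower in vertebral GFP+ EMB- than in GFP- EMB- cells, at 17.9 ± 2.18 FPKM, against 36.3 ± 4.28 FPKM (-0.98, SE 0.21, limma adjusted p = 0.002). Pfkp averaged 59.7 ± 9.95 FPKM in GFP+ EMB- cells and 97.9 ± 8.75 FPKM in GFP- EMB- cells (-0.71, SE 0.13, limma adjusted p = 0.00038), and Slc2a1 39.8 ± 6.35 FPKM and 62.4 ± 8.35 FPKM in the same order (-0.64, limma adjusted p = 0.011). In these 3 genes all GFP+ EMB- libraries were below all GFP- EMB- libraries. The Slc2a1 call was lost without GFP+ EMB- replicate 3 (adjusted p = 0.061) or GFP- EMB- replicate 1 (adjusted p = 0.052). The call of Hk1 (-0.68) was lost without GFP+ EMB- replicate 2, 3 or 4 or GFP- EMB- replicate 1 or 2, and that of Aldoc (-0.58) without GFP+ EMB- replicate 1 or 2 or any 1 GFP- EMB- library (limma adjusted p between 0.06 and 0.17). Blocked by replicate number, 18 members were lower, adding among others Pkm (-0.41, limma adjusted p = 0.0022), Bnip3 (-0.45, limma adjusted p = 0.0021), Pfkl (-0.39, limma adjusted p = 0.0055) and Ldha (-0.36, limma adjusted p = 0.0093). The share of all genes called with this block is not given here, so the rise cannot be read as particular to the members. Without GFP- EMB- replicate 1, 2 members were called lower, and without GFP- EMB- replicate 2 or GFP+ EMB- replicate 2 or 3, 3 were. Erythroid genes summed to 266 to 979 FPKM in GFP+ EMB- libraries, against 7303 to 12398 FPKM in GFP- EMB- libraries. Genes of dividing cells summed to 15.5 to 22.4 FPKM in GFP+ EMB- libraries, against 102 to 156 FPKM in GFP- EMB- libraries, and leukocyte genes to 43.1 to 83.5 FPKM, against 140 to 565 FPKM. Hypertrophic chondrocyte genes were higher in GFP+ EMB- libraries, at 975 to 1173 FPKM, against 398 to 592 FPKM in GFP- EMB- libraries, as were osteoblast genes, at 7031 to 7569 FPKM, against 3945 to 4806 FPKM. The part of these genes in the differences was not tested.

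Vertebral and long bone cells were compared within each EMB state. These 4 comparisons share groups with each other and with those above, so their calls are not independent. Vertebral GFP+ and long bone cells also differ in GFP state. Epas1 was lower in vertebral cells throughout. In EMB+ cells it had 0.990, 0.722, 1.03 and 0.815 FPKM in vertebral GFP+ libraries and 0.449, 0.692, 0.859 and 1.02 FPKM in vertebral GFP- libraries, against 2.05, 2.72, 3.03 and 2.98 FPKM in long bone libraries. In EMB- cells it had 0.648, 0.974, 0.918 and 0.935 FPKM in vertebral GFP+ libraries and 0.597, 0.470, 0.426 and 0.417 FPKM in vertebral GFP- libraries, against 2.00, 2.85, 2.03 and 2.36 FPKM in long bone libraries. No vertebral library reached the lowest long bone library, and all values were low.

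The log2 change of Epas1 was -0.96 (SE 0.13, limma adjusted p = 3.4e-06) in vertebral GFP+ against long bone EMB+ cells and -1.07 (limma adjusted p = 9.2e-07) in vertebral GFP- against long bone EMB+ cells. In EMB- cells it was -0.82 (limma adjusted p = 1.2e-05) in vertebral GFP+ and -1.16 (limma adjusted p = 1.2e-07) in vertebral GFP- against long bone cells. Without long bone EMB- replicate 4 the last pair was -0.81 and -1.15. Pfkp was higher in vertebral cells in all 4 comparisons, by 0.74 (limma adjusted p = 0.00012) in GFP+ EMB+, 0.40 (limma adjusted p = 0.029) in GFP- EMB+, 0.90 (limma adjusted p = 3.4e-06) in GFP+ EMB- and 1.61 (limma adjusted p = 4.1e-10) in GFP- EMB- cells. The second of these was lost without any 1 of 5 libraries, vertebral GFP- EMB+ replicate 1, 2 or 4 or long bone EMB+ replicate 1 or 2 (adjusted p between 0.053 and 0.099).

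Car9 changed sides with the EMB state. In EMB+ cells it was lower in vertebral than in long bone cells, 5.64-fold in GFP+ (-1.55, SE 0.21, limma adjusted p = 2.4e-06) and 4.17-fold in GFP- cells (-1.35, SE 0.21, limma adjusted p = 2.2e-05). In EMB- cells it was 2.75-fold higher in vertebral GFP+ (1.38, SE 0.21, limma adjusted p = 4.9e-06) and 5.57-fold higher in vertebral GFP- cells (2.36, SE 0.21, limma adjusted p = 1.5e-09). Without long bone EMB- replicate 4 the EMB- values were 1.55 and 2.53. Vertebral and long bone libraries did not overlap in any of the 4.

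In EMB+ cells, vertebral GFP+ cells exceeded long bone cells in 3 members, Pfkl, Pfkp and Ddit4, and 9 were lower, where 8.66% of all genes were higher and 12.9% lower. The 9 were Aldoc, Pgk1, Eno2, Eno3, Ldhb, Epas1, Egln3, Ndrg1 and Car9. The calls of 3 members were lost without single libraries (limma adjusted p between 0.052 and 0.13). For Pgk1 these were vertebral GFP+ EMB+ replicate 2 or 3 or long bone EMB+ replicate 1, 3 or 4, for Eno2 vertebral GFP+ EMB+ replicate 1 or 2 or long bone EMB+ replicate 3, and for Ddit4 vertebral GFP+ EMB+ replicate 1 or 3 or long bone EMB+ replicate 1. In vertebral GFP- against long bone EMB+ cells, 2 were higher, Pfkl and Pfkp, and 8 lower, where 8.49% of all genes were higher and 10.6% lower. Neither of the 2 was called without vertebral GFP- EMB+ replicate 1 or 2 or long bone EMB+ replicate 1 or 2, and 1 was without vertebral GFP- EMB+ replicate 4. Of the lower genes, Egln3 lost its call without vertebral GFP- EMB+ replicate 1 (limma adjusted p = 0.075) or long bone EMB+ replicate 4 (adjusted p = 0.072), and Adm without vertebral GFP- EMB+ replicate 2 (adjusted p = 0.052). Pfkl had 58.4, 54.4, 44.2 and 61.1 FPKM in vertebral GFP+ EMB+ libraries and 57.9, 54.4, 47.9 and 50.2 FPKM in vertebral GFP- EMB+ libraries, against 37.7, 33.3, 41.4 and 45.0 FPKM in long bone EMB+ libraries. The first of these groups overlapped long bone (0.46, SE 0.13, limma adjusted p = 0.012; adjusted p = 0.059 without long bone EMB+ replicate 2), and the second did not (0.41, SE 0.13, limma adjusted p = 0.026). Leukocyte genes summed to 455 to 3336 FPKM in vertebral GFP- EMB+ libraries, against 112 to 773 FPKM in long bone EMB+ libraries, and osteoblast genes were lower in vertebral EMB+ than in long bone EMB+ libraries, at 3604 to 5564 FPKM, against 12094 to 26460 FPKM. Tendon and fibroblast genes summed to 314 to 516 FPKM in vertebral EMB+ libraries, against 805 to 1135 FPKM in long bone EMB+ libraries, and genes of dividing cells to 95.6 to 127 FPKM, against 57.6 to 76.1 FPKM. In vertebral GFP+ EMB+ libraries the sum of skeletal muscle genes, at 86.4 to 108 FPKM, was above the 56.7 to 63.9 FPKM of long bone EMB+ libraries, and that of hypertrophic chondrocyte genes, at 3693 to 4055 FPKM, below their 4464 to 8021 FPKM. By gene, 3 of the 6 hypertrophic chondrocyte genes were called higher and 3 lower there. Of 5 skeletal muscle genes tested, 1 was called higher and 1 lower. The part of these genes in the differences was not tested.

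In EMB- cells, vertebral GFP- cells exceeded long bone cells in 17 members, and 7 were lower. The 17 were Slc2a1, Gpi1, Pfkl, Pfkp, Aldoa, Tpi1, Pgk1, Pgam1, Eno1, Pkm, Ldha, Pdk1, Hif1a, Bnip3, Ankrd37, Car9 and Higd1a, and the 7 were Hk1, Pfkm, Pfkfb4, Eno3, Ldhb, Epas1 and Adm. Of all genes tested 8.05% were higher and 40.2% lower, with a median of -0.28 (log2), against 0.40 for the members. After median-ratio scaling 21 members were higher and 4 lower, against 15.9% and 22.6% of all genes. Without long bone EMB- replicate 4, 17 were higher and 7 lower, and Hif1a lost its call (limma adjusted p = 0.2), as it did without vertebral GFP- EMB- replicate 1, 2 or 4 (adjusted p between 0.056 and 0.11). Without long bone EMB- replicate 2, Gpi1, Aldoa, Tpi1, Eno1 and Hk1 lost theirs (limma adjusted p between 0.061 and 0.17). Aldoa also lost it without long bone EMB- replicate 1 or 3 or vertebral GFP- EMB- replicate 1, 2 or 4 (limma adjusted p between 0.062 and 0.088). Hk1 lost it without long bone EMB- replicate 1 or 3 or vertebral GFP- EMB- replicate 3 or 4 (limma adjusted p between 0.055 and 0.075), and Gpi1 without long bone EMB- replicate 1 or vertebral GFP- EMB- replicate 3 or 4 (limma adjusted p between 0.05 and 0.062). In vertebral GFP+ against long bone EMB- cells, 5 members were higher (Pfkp, Ldha, Bnip3, Ankrd37 and Car9) and 9 lower, where 7.4% of all genes were higher and 40.4% lower. The call of Ldha (0.37, limma adjusted p = 0.046) was lost without vertebral GFP+ EMB- replicate 1, 3 or 4 or long bone EMB- replicate 1, 2 or 3 (adjusted p between 0.061 and 0.22). Of the lower genes, Pfkfb3 lost its call without vertebral GFP+ EMB- replicate 2, 3 or 4 or long bone EMB- replicate 1, 3 or 4 (limma adjusted p between 0.069 and 0.12), and Eno2 without vertebral GFP+ EMB- replicate 1 or 4 or long bone EMB- replicate 1, 2 or 3 (limma adjusted p between 0.055 and 0.15). Median-ratio scaling made these 17 and 7, against 17.1% and 23.8% of all genes, and without long bone EMB- replicate 4 there were 9 higher and 8 lower. Bnip3 was 1.49 above long bone in vertebral GFP- EMB- cells (log2, SE 0.16, limma adjusted p = 9.3e-08) and 1.58 above without that replicate. Adm was lower in vertebral EMB- cells, at 2.47, 0.662, 1.21 and 1.82 FPKM in GFP+ and 2.11, 1.91, 1.29 and 0.843 FPKM in GFP- libraries, all below the long bone EMB- libraries given above (-1.41, limma adjusted p = 5e-06, and -1.38, limma adjusted p = 8.5e-06). Erythroid genes summed to 266 to 979 FPKM in vertebral GFP+ and 7303 to 12398 FPKM in vertebral GFP- EMB- libraries, against 20247 to 42638 FPKM in long bone EMB- libraries. Genes of dividing cells summed to 15.5 to 22.4 FPKM in vertebral GFP+ and 102 to 156 FPKM in vertebral GFP- EMB- libraries, against 247 to 587 FPKM in long bone EMB- libraries. Skeletal muscle genes summed to 33.997 to 47.3 FPKM in vertebral GFP+ and 34.7 to 45.6 FPKM in vertebral GFP- EMB- libraries, against 372 to 846 FPKM in long bone EMB- libraries. Osteoblast genes summed to 7031 to 7569 FPKM in vertebral GFP+ and 3945 to 4806 FPKM in vertebral GFP- EMB- libraries, against 10359.8 to 18956 FPKM in long bone EMB- libraries, and hypertrophic chondrocyte genes to 975 to 1173 FPKM and 398 to 592 FPKM, against 2441 to 4236 FPKM. Leukocyte genes had a lower sum in vertebral GFP+ EMB- libraries, at 43.1 to 83.5 FPKM, against 174.5 to 630 FPKM in long bone EMB- libraries. So did tendon and fibroblast genes in vertebral GFP- EMB- libraries, at 1243 to 1595 FPKM, against 1671 to 2612 FPKM. By gene, 4 of these 8 tendon and fibroblast genes were called lower and 3 higher, where 40.2% of all genes were lower and 8.05% higher. Of the 6 hypertrophic chondrocyte genes, 3 were called lower and 1 higher in vertebral GFP+ against long bone EMB- cells. The part of these genes in the differences was not tested.

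**Figure D5:**
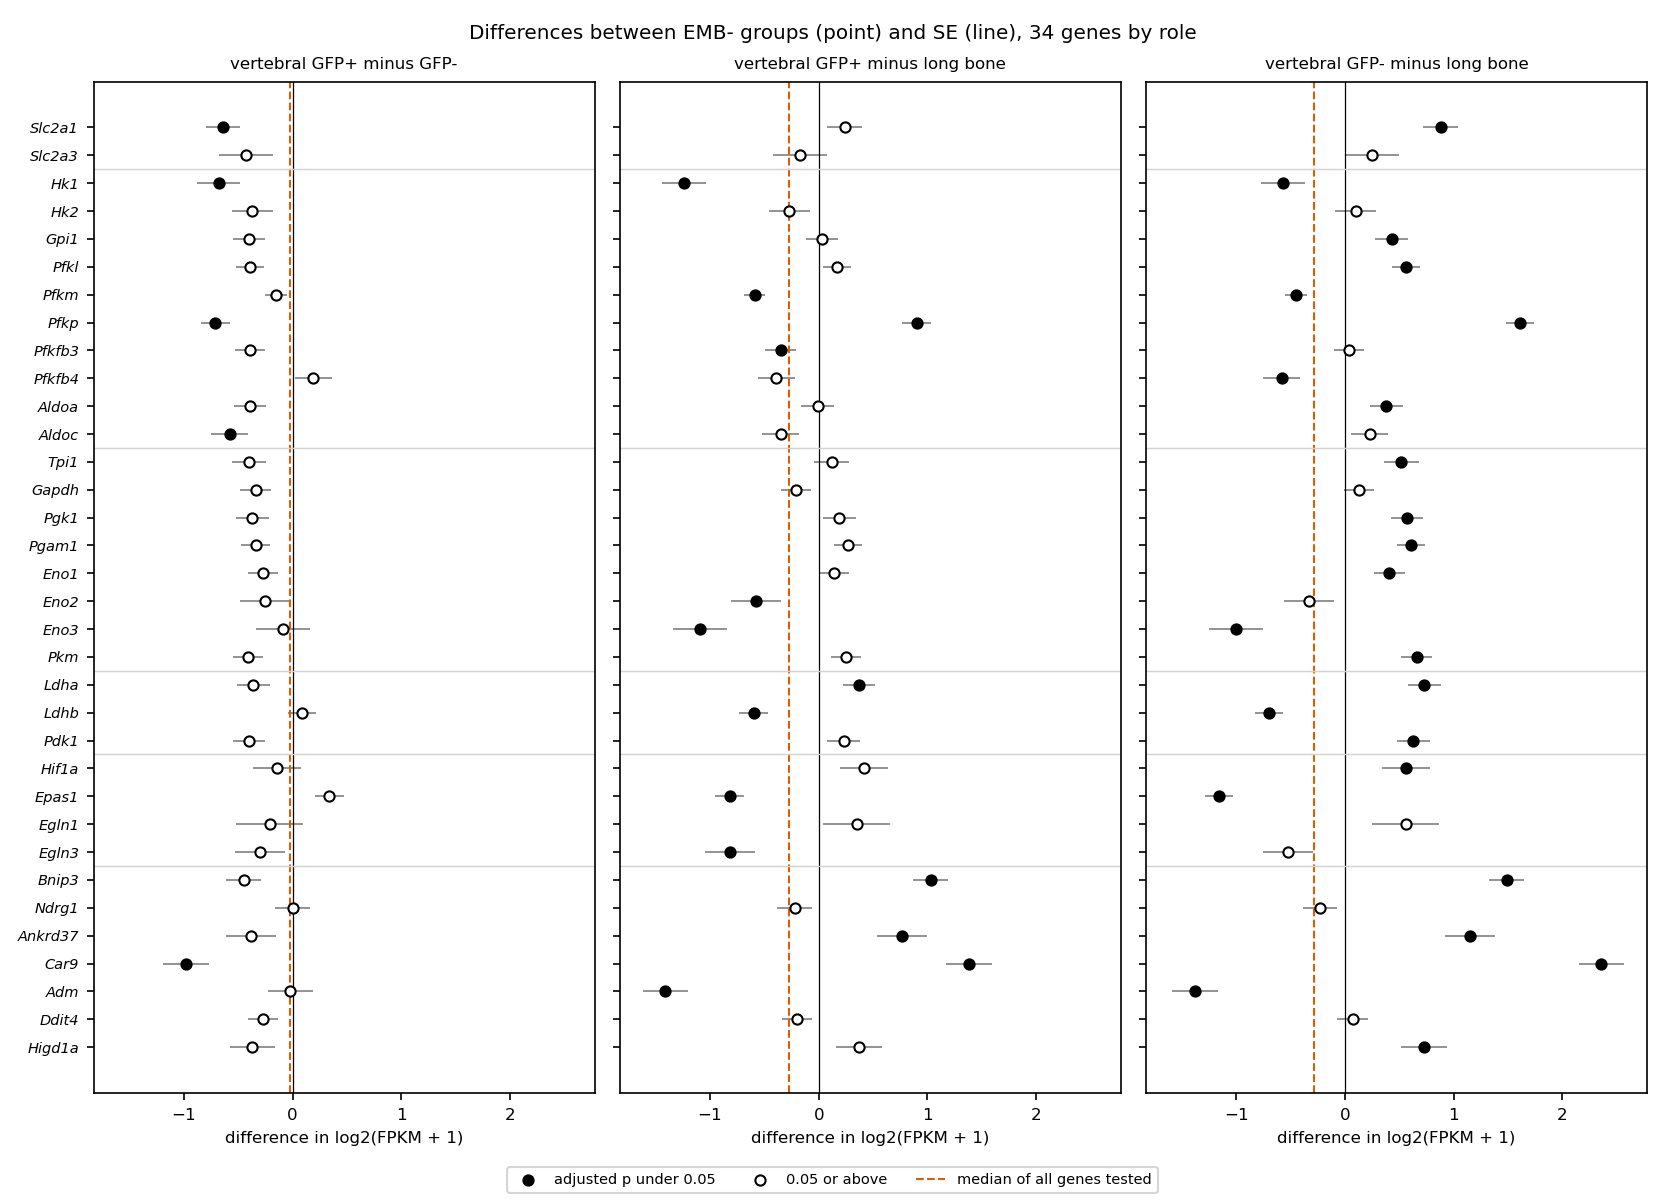
Log2 differences of the 34 genes in EMB- cells for vertebral GFP+ minus vertebral GFP-, vertebral GFP+ minus long bone and vertebral GFP- minus long bone, with the SE as bars, filled points for an adjusted p under 0.05 and a dashed line at the median of all genes tested. Car9 is at -0.98, 1.38 and 2.36, Pfkp at -0.71, 0.90 and 1.61, and the medians of all genes at -0.02, -0.27 and -0.28.

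Other genes of the same pathways are set beside the shares of all genes tested: 42.1% higher and 7.85% lower in EMB+ than in EMB- vertebral GFP+ cells, 41.7% and 10.6% in vertebral GFP- cells, and 17.5% and 16% in long bone cells. Of 33 other HIF pathway genes tested, 8 were higher and 7 lower in EMB+ than in EMB- vertebral GFP+ cells, 7 and 12 in vertebral GFP- cells, and 8 and 5 in long bone cells. These are 24.2% and 21.2%, 21.2% and 36.4%, and 24.2% and 15.2% of the 33, and their median changes were 0.06, -0.02 and 0.12 (log2), against 0.32, 0.30 and 0.08 for all genes. After median-ratio scaling the counts were 3 and 16, 4 and 15, and 7 and 6, where 12.9% and 14.7%, 15.3% and 19.7%, and 12.2% and 18.3% of all genes were higher and lower. Car12, the membrane carbonic anhydrase XII, went opposite to Car9, with 17.9 ± 5.84 FPKM in vertebral GFP+ EMB+ cells, against 1.93 ± 0.665 FPKM in GFP+ EMB- cells (2.67, SE 0.22, limma adjusted p = 7.8e-10). It averaged 17.9 ± 2.99 FPKM in vertebral GFP- EMB+ cells, against 1.36 ± 0.369 FPKM in GFP- EMB- cells (3.00, limma adjusted p = 6.3e-11), and 26.6 ± 7.44 FPKM in long bone EMB+ cells, against 2.22 ± 0.845 FPKM in long bone EMB- cells (3.10, limma adjusted p = 4.5e-11). Vegfa, the angiogenic factor, was lower in vertebral GFP- EMB+ cells (-1.08, limma adjusted p = 6.9e-06), as were Stc2 (-1.09), a secreted glycoprotein, and Mxi1 (-1.15), a Myc antagonist. Angptl4, a secreted inhibitor of lipoprotein lipase, was higher there (1.70, limma adjusted p = 1.2e-09).

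Of 27 other glucose metabolism genes tested, 13 were higher and 3 lower in EMB+ than in EMB- vertebral GFP+ cells, 13 and 4 in vertebral GFP- cells, and 4 and 4 in long bone cells. These are 48.1% and 11.1%, 48.1% and 14.8%, and 14.8% and 14.8% of the 27, shares near those of all genes, and their median changes were 0.34, 0.27 and 0.04 (log2). After median-ratio scaling the counts were 4 and 6, 6 and 8, and 4 and 4. Pygl, the glycogen phosphorylase of liver, was higher in EMB+ cells of all 3 kinds, at 33.9 ± 1.74 FPKM, against 17.1 ± 1.45 FPKM in vertebral GFP+ cells (0.95, limma adjusted p = 1e-07), with changes of 0.82 in vertebral GFP- and 1.11 in long bone cells. Bpgm, which makes 2,3-bisphosphoglycerate in red cells, fell in EMB+ cells by 1.05 in vertebral GFP+, 1.51 in vertebral GFP- and 2.33 in long bone cells (limma adjusted p = 2.3e-05, 9.5e-08 and 6.9e-11). In EMB+ cells all 17 genes of the tricarboxylic acid cycle were higher in the vertebral GFP+ lineage and 16 in the GFP- one, with none lower, where 42.1% and 41.7% of all genes were higher. Their median changes were 0.59 and 0.68 (log2), and under median-ratio scaling 3 and 8 were higher, where 12.9% and 15.3% of all genes were. In long bone 2 were higher and 1 lower. Of 6 pentose phosphate genes tested, 6 and 4 were higher in EMB+ cells of vertebral GFP+ and GFP- origin, 2 and 3 after median-ratio scaling, and none in long bone, against the same shares of all genes. Lower were 1 in long bone, Taldo1 (-0.84, limma adjusted p = 3.5e-06), and 1 in vertebral GFP- cells after median-ratio scaling only.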

How the data were processed

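RNA of 24 libraries, 4 in each of 6 sorted groups, was extracted with an RNeasy kit and made into libraries with SMART-Seq v4 and Nextera XT, per the labels' protocols. Per the submitters' processing notes, bcl2fastq 2.19, STAR 2.5.2 and Cufflinks 2.1.1 were used with GRCm38. The authors deposited FPKM per protein-coding gene, with no counts, so depth and counting error are unknown. The kit does not mark strand, so reads of a gene and of an overlapping antisense gene cannot be told apart.

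Of 22053 entries, 46 with a repeated identifier, 56 with a repeated symbol and 3 genes with a failed estimate were left out, leaving 21948. The test was run on the 11767 genes that reached an FPKM of 1 in 4 or more of the 24 libraries. limma 3.58.1 in R 4.3.3 was fitted to log2(FPKM + 1) over all 6 groups, with trended and robust variance (18 residual degrees of freedom, median prior 6.66). The two-sided p-values were adjusted by Benjamini and Hochberg over all genes tested, separately in each of 9 comparisons and 2 differences of differences and a threshold of 0.05. A log2 change on this scale understates the change of low genes, and folds are ratios of mean FPKM. The fit was also run on simulated data with independent normal noise and no shift of whole libraries, unlike the real data. It recovered 83 of 100 changes of 2-fold and 100 of 100 changes of 4-fold, and 13 of its 196 calls were unchanged genes.

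Long bone EMB+ libraries, whose titles all carry the number 1, were numbered in accession order, which only names them. Replicate numbers paired the libraries, by correlations of their deviations from the group means, in 3 comparisons: EMB in vertebral GFP- cells (0.135 to 0.236), GFP in EMB+ cells (0.169 to 0.337) and GFP in EMB- cells (0.13 to 0.292). Alternatives were other pseudocounts and filters, median-ratio scaling over 4841 genes (size factors 0.806 to 1.16), quantile normalization, rescaling without erythroid genes, fits of the compared groups only, a replicate block, leaving out the group with conflicting labels and leaving out each library. The members, lists and tests were chosen with earlier results of these data known. Values in every library were given for the called genes with the smallest adjusted p in each comparison, up to 3 per direction for EMB and 2 for the others. The further members named with values were chosen after their values were seen. Promoters came from RefSeq on GRCm38.p6, with 31 of 34 members matched by symbol.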

Additional observations from a re-analysis of the deposited data

Results flagged for a closer look

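In 9 of 204 gene and group pairs (34 genes in 6 groups of 4 libraries), the lowest or highest library lay far from the rest on log2(FPKM + 1). Its gap on that scale, as a share of the range of the group, exceeded Dixon's 95% critical value. The ratios below are on that scale, not on the FPKM printed beside them. Ratios taken on FPKM differ, and whether each of the 9 would pass there is not given. Chance gives about 1 in 20. Hk2 was low in vertebral GFP+ EMB+ replicate 3 (5.40 FPKM, against 6.68 to 6.97 FPKM in the other libraries, a gap of 0.831 of the range in log2). It was also low in vertebral GFP- EMB+ replicate 2 (5.15 FPKM, against 5.62 to 5.66 FPKM, 0.920). Pfkl and Pfkp were both low in long bone EMB- replicate 2, at 31.98 FPKM for Pfkl (against 39.5 to 40.1 FPKM, 0.930) and 24.6 FPKM for Pfkp (against 32.9 to 34.8 FPKM, 0.836). Pfkfb3 was low in vertebral GFP- EMB- replicate 3 (9.83 FPKM, against 13.0 to 13.5 FPKM, 0.872), and Gapdh in vertebral GFP- EMB+ replicate 2 (358 FPKM, against 467 to 492 FPKM, 0.836). Pkm was high in vertebral GFP- EMB- replicate 1 (673 FPKM, against 582 to 595 FPKM, 0.839). Epas1 was low in vertebral GFP+ EMB- replicate 1 (0.648 FPKM, against 0.918 to 0.974 FPKM, 0.839), and Ddit4 in long bone EMB+ replicate 1 (8.33 FPKM, against 9.78 to 9.93 FPKM, 0.912). None of the 9 was in long bone EMB- replicate 4.

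The difference between EMB+ and EMB- cells itself differed between cell groups for 11 genes, by limma's test of the difference. In vertebral GFP+ minus vertebral GFP- cells it was 1.04 for Pfkp, 0.71 for Pfkfb3 and 0.67 for Ddit4 (log2). In vertebral GFP- minus long bone cells it was -0.79 for Slc2a1, -1.20 for Pfkp, -0.98 for Aldoc, -0.56 for Pgk1, -0.67 for Pkm, -0.72 for Pdk1, -1.32 for Bnip3, -3.72 for Car9 and -1.06 for Higd1a.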

How the results depend on the processing

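Of 125 changes of members past the threshold, 69 kept their call under every alternative that was run, and of 2261 alternative values 1979 kept direction and call, 275 lost the call and 7 turned direction. The turned values were Pfkl (-0.04 and -0.01) and Pfkm (-0.00 and -0.00) for EMB in vertebral GFP+ cells and Eno1 (-0.08 and -0.01) for EMB in vertebral GFP- cells, under median-ratio scaling and quantile normalization, and Pfkfb3 in vertebral GFP+ against long bone EMB- cells (0.07, quantile normalization). The causes were not tested. Depth is unknown, and 4 libraries per group limit precision. Shares of all genes are given above for the main fit and for median-ratio scaling only. Member counts under the other alternatives stand without such a share, so a rise or fall there cannot be read as particular to the members.

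For EMB in vertebral GFP+ cells, members higher numbered 1 under median-ratio scaling, 1 under quantile normalization and 3 rescaled without erythroid genes, and members lower 18 and 17 under the first pair. For EMB in vertebral GFP- cells, members higher were 0 under all 3. For EMB in long bone cells, members higher were 0 in the fit of the compared groups only, and members lower 2 there, 2 with the stricter filter (FPKM of 5 or more) and 7 under median-ratio scaling. For GFP in EMB- cells, members lower numbered 3 with no filter, 8 rescaled without erythroid genes, 16 in the compared groups only and 3 without the libraries with conflicting labels, and members higher 1 with a pseudocount of 0.1 and 1 under quantile normalization. For vertebral GFP+ against long bone EMB+ cells, members lower were 14 in the compared groups only. For vertebral GFP+ against long bone EMB- cells, members higher were 17 under median-ratio scaling, 17 under quantile normalization and 10 without erythroid genes, and members lower 5 with the stricter filter and 4 under quantile normalization. For vertebral GFP- against long bone EMB+ cells, members higher were 0 without erythroid genes and members lower 5 with the stricter filter. For vertebral GFP- against long bone EMB- cells, members higher were 11 in the compared groups only, and members lower 4 with the stricter filter, 4 under median-ratio scaling and 3 under quantile normalization. The difference of vertebral GFP+ minus GFP- cells had 1 member above under quantile normalization and 5 in the compared groups only. That of vertebral GFP- minus long bone cells had 1 above with a pseudocount of 5, and 18, 20 and 16 below under median-ratio scaling, quantile normalization and without erythroid genes.

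Leaving out 1 library at a time, members higher and lower ranged over 4 to 8 and 9 to 12 for EMB in vertebral GFP+ cells, 1 to 4 and 13 to 16 in vertebral GFP- cells, and 2 to 11 and 3 to 6 in long bone cells. They ranged over 0 to 0 and 0 to 0 for GFP in EMB+ cells and 0 to 0 and 2 to 6 in EMB- cells. Vertebral GFP+ against long bone cells gave 2 to 3 and 7 to 10 in EMB+ and 4 to 9 and 7 to 10 in EMB- cells, and vertebral GFP- against long bone cells 0 to 2 and 7 to 9 in EMB+ and 13 to 17 and 6 to 7 in EMB- cells. The differences had 1 to 4 above and 0 to 0 below for the vertebral pair, and 0 to 1 above and 8 to 15 below for vertebral GFP- minus long bone cells.

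With the replicate block, members lower were 2 for GFP in EMB+ cells and 18 in EMB- cells, the vertebral difference had 5 above (adding Pfkl, 0.43, and Car9, 0.78), and that of vertebral GFP- minus long bone cells had 15 below. EMB in vertebral GFP- cells gave 4 higher and 17 lower with the block. Where not all correlations passed the cut-off of 0.1, pairing was left undecided. There the block gave 9 higher and 11 lower for EMB in vertebral GFP+ cells (correlations 0.097 to 0.279) and 9 and 6 in long bone (-0.097 to 0.296). It gave 4 and 7 for vertebral GFP+ and 12 and 5 for vertebral GFP- against long bone EMB- cells (-0.045 to 0.395 and -0.297 to 0.236). Titles of long bone EMB+ libraries all carry the number 1, so within long bone, also in the difference with 15 below, the block paired EMB+ and EMB- libraries with neighbouring title codes. No label says that these codes mark a pair. No paired analysis was possible because titles share fewer than 2 numbers, for vertebral against long bone EMB+ cells.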
